A study of Mus musculus with 16 samples.

Results

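The 36 genes described here are needed for cells to divide. They were chosen by name: a probe belonged to the group when the gene name printed for it in the scanner files was one of the 36, and the brightest probe of each gene over all arrays was used. All 36 were found among the 28095 gene names on the array. Of them, 8 serve DNA replication (Mcm2, Mcm3, Mcm5, Mcm6, Pcna, Rrm2, Tyms and Tk1) and 28 serve mitosis and the entry into it. The rule uses gene names and no measured value, although the list was drawn up with earlier results of these data known.

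The RNA came from aortas of female C57BL/6 mice deficient in ApoE, the lipoprotein ligand without which mice accumulate cholesterol and develop atherosclerosis. The mice were ovariectomized when 4 to 5 weeks old. A hormone or placebo pellet was placed under the skin 2 weeks later, and the mice then ate a high-fat Western-type diet until the aorta was taken after 78 to 90 days. All groups shared the genotype, the surgery and the diet. A group given medroxyprogesterone acetate (MPA) and a group given norethisterone acetate (NET-A), both synthetic progestins used in hormone therapy, each had a placebo group of its own, matched by the letter M or N in the sample titles. The labels state no dose. Each of the 4 groups had 4 arrays. Whether each array held the aorta of 1 animal is not said in the labels. The p-values therefore reflect how far these samples varied, and some of that variation may be technical.

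A dividing cell first copies its DNA in S phase and then separates the copies in mitosis. Genes of the first step are switched on by E2F factors at the border of G1 and S. Genes of the second are held down in resting cells by the DREAM complex and switched on later by B-MYB and FOXM1, through a promoter element called the cell cycle genes homology region (CHR), often with CCAAT boxes nearby. Few cells of an adult artery divide. In an atherosclerotic artery, macrophages, lymphocytes, smooth muscle cells and endothelial cells can all do so, and the RNA of a whole aorta does not say which. In such bulk RNA, fewer cells of a type and less RNA per cell cannot be told apart.

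The promoters show how the replication and mitosis genes differ in the letters they carry. RefSeq windows of GRCm38.p6 ran from 250 bases before to 50 after each start site. They were used for 31 of the 36 genes, in 32 windows because 1 gene, Prc1, had more than 1 start. The 24 windows of mitosis genes thus cover 23 genes. The Prc1 windows overlap and hold the same CHR and CCAAT words, which are counted once for each window. No window of Aurkb, Ccna2, Foxm1, Kif20a or Tpx2 was used, so the mitosis counts leave these genes out. Both strands were searched for the CHR as TTTGAA or TTTAAA, for the CCAAT box as CCAAT, and for the E2F site as TTTCCCGC, TTTCGCGC, TTTGCCGC or TTTGGCGC. A CHR word was in 21 of the 24 windows of mitosis genes (87.5%), in 4 of the 8 of replication genes (50%) and in 27.6% of all 32851 windows. CCAAT was in 83.3% of the mitosis windows, 75% of the replication windows and 37.4% of all. Both a CHR word and CCAAT were in 19 of the 24 mitosis windows, 3 of the 8 replication windows and 3525 of all 32851. An E2F word was in 3 of the 8 replication windows (37.5%), in 0 of the 24 mitosis windows and in 2.26% of all. A match is a description of the letters and not a binding site.

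The 250 bases before the start of 4 genes are given 5′ to 3′ on the gene's strand, with the words searched for in capitals. Mcm6 stands for the replication genes with E2F words, Ccnb1 for the mitosis genes with a CHR word, and Ube2c and Nusap1 are mitosis genes whose levels lay on the other side of the placebo from most members. They lie at chr1:128359706-128359955 (minus strand), chr13:100786487-100786736 (minus), chr2:164769679-164769928 (plus) and chr2:119618048-119618297 (plus).
Mcm6: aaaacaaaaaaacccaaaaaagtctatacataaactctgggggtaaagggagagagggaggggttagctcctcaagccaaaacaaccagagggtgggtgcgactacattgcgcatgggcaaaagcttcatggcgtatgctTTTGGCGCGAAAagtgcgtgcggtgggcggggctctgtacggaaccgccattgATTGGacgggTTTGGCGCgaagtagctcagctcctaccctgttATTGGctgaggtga
Ccnb1: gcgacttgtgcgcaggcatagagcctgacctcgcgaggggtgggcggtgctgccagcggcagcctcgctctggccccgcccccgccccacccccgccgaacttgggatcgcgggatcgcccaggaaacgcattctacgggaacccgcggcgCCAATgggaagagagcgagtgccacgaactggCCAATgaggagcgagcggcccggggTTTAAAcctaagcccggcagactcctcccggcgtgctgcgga
Ube2c: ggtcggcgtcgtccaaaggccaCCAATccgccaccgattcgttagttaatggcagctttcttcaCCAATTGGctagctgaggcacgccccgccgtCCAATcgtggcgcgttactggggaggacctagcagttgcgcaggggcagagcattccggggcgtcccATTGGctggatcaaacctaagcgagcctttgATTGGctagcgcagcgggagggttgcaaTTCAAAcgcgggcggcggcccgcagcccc
Nusap1: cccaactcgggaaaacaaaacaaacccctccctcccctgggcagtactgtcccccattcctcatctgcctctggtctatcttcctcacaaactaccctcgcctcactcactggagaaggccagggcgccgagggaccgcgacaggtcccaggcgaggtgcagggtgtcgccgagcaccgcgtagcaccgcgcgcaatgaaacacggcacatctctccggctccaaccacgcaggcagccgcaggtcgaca
Mcm6 had 3 E2F words, at 110, 106 and 47 bases before the start (the first overlapping the second), and 2 CCAAT words. In Ccnb1 the word TTTAAA began 42 bases before the start, with CCAAT at 99 and 67. Ube2c had a CHR word 29 bases before the start and 6 CCAAT words, of which a pair overlapped. Nusap1 had none of the words searched for in this window.

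Levels are log2 signals minus the 75th percentile of the signals of the same array, so 0 is the level that 75% of spots lie under and a difference of 1 is a 2-fold difference. A level belongs to its probe and is compared only between arrays. The MPA experiment was on slides 1 and 2 and the NET-A experiment on slides 3, 4 and 5, with different versions of the scanner software, so the experiments and their placebo groups are not compared directly. Between 46.3% and 60.6% of spots were well above background on the MPA arrays and 62.3% to 78.5% on the NET-A arrays, and no spot was saturated. All 7 smooth muscle and all 6 endothelial markers were well above background on nearly every array, the lowest on 15 of the 16. So were all 6 markers of brown adipocytes, fat cells that surround the thoracic aorta.

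Most cell division genes were measurable. Of the 36, 22 were well above background on all 16 arrays, and Ttk, a kinase of the spindle checkpoint, was on none. An array of the MPA experiment had 24 to 33 members well above background and an array of the NET-A experiment 29 to 35. Of the 576 values of the members, 5 came from spots marked as outliers by the scanner software and were left out. For Birc5 these were 4 values and for Cdca8 1 value, and the other 34 genes kept all 16.

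**Figure D1:**
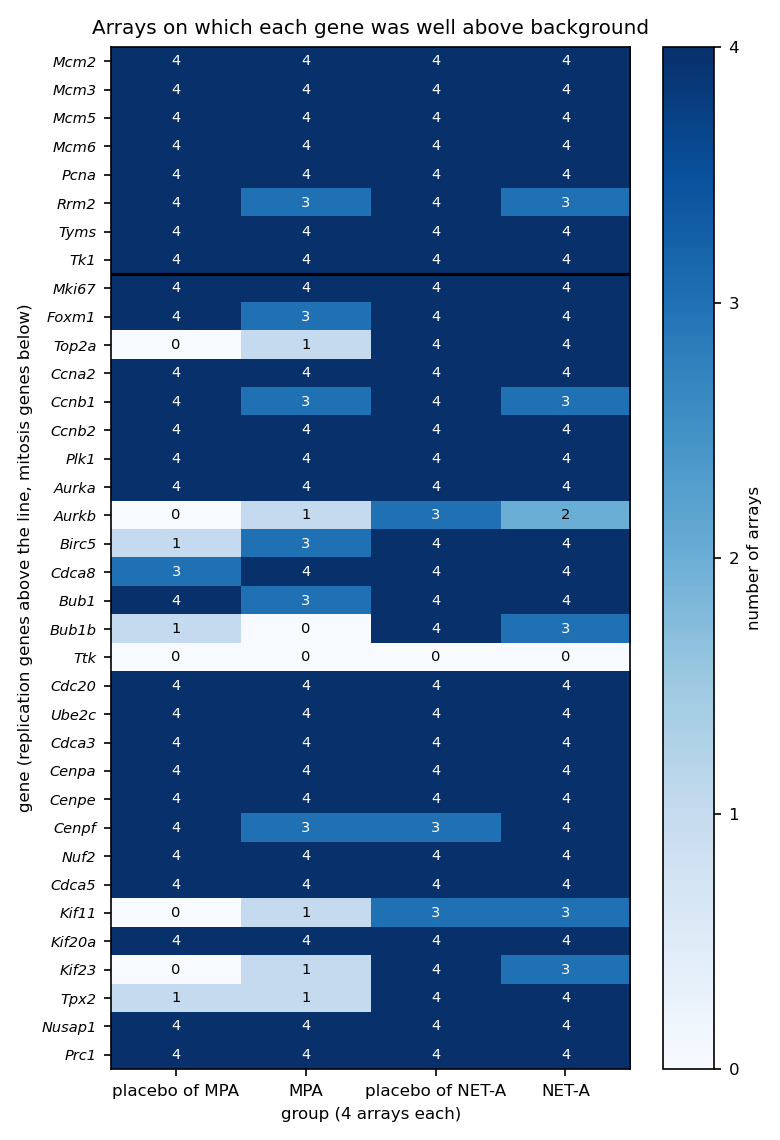
The number of arrays of each group (columns, 4 arrays each) on which each gene (rows, replication genes above the line) was well above background. A left-out outlier spot counts as not well above background, which lowers Birc5 and Cdca8 in the MPA experiment. Top2a and Kif23 were above background on 0 of 4 arrays of the placebo of MPA and on 4 of 4 of the placebo of NET-A, and Ttk on none.

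A gene was tested where its probe was well above background on at least 4 of the 8 arrays of an experiment. That left 29 members with MPA, all 8 replication genes and 21 of the 28 mitosis genes, and 35 with NET-A, all except Ttk. Not tested with MPA were Top2a, Aurkb, Bub1b, Ttk, Kif11, Kif23 and Tpx2. A gene that passes because it is bright in only 1 group is more likely to differ, so the counts below describe the tested members and not all 36.

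No member passed the threshold of 0.05 on the adjusted p (limma with Benjamini-Hochberg adjustment over all genes tested) in either comparison. Neither did any other gene: 0% of the 15133 genes tested with MPA and 0% of the 20909 tested with NET-A were called. The smallest adjusted p of any gene was 0.721 with MPA and 0.331 with NET-A. At an unadjusted p under 0.05, limma gave 939 genes with MPA (6.2%, made up of 3.71% higher and 2.49% lower) and 1294 with NET-A (6.19%, made up of 2.47% higher and 3.72% lower). Among the members these were 1 of 29 with MPA (Birc5, lower) and 5 of 35 with NET-A (Ccnb1, Aurkb and Cdca5 lower, Ube2c and Nusap1 higher). The Birc5 value rests on a placebo group of 1 array, and with the outlier spots kept the count was 0 of 29 with MPA. The groups did not overlap for 0 members with MPA and 1 with NET-A (Ccnb1), against 3.71% and 3.91% of all genes. None of the differences given below is therefore a called change.

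With NET-A, nearly all tested members lay below their placebo by small amounts. Fitted differences were below 0 for all 8 replication genes, with a median of -0.22, and for 24 of the 27 mitosis genes, with a median of -0.35. Over all genes tested, 55.1% were below 0 and 44.9% above, and the median was -0.03. With MPA, 7 of 8 replication genes were below 0 (median -0.17) and 15 of 21 mitosis genes (median -0.10), against 50.5% of all genes below 0 and 49.5% above. Of the 29 members tested in both experiments, 21 lay below placebo in both (72.4%), against 26.6% of all genes tested in both. Ube2c and Nusap1 lay above placebo in both. The genes share their cells and their arrays, so these counts are not independent observations.

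**Figure D2:**
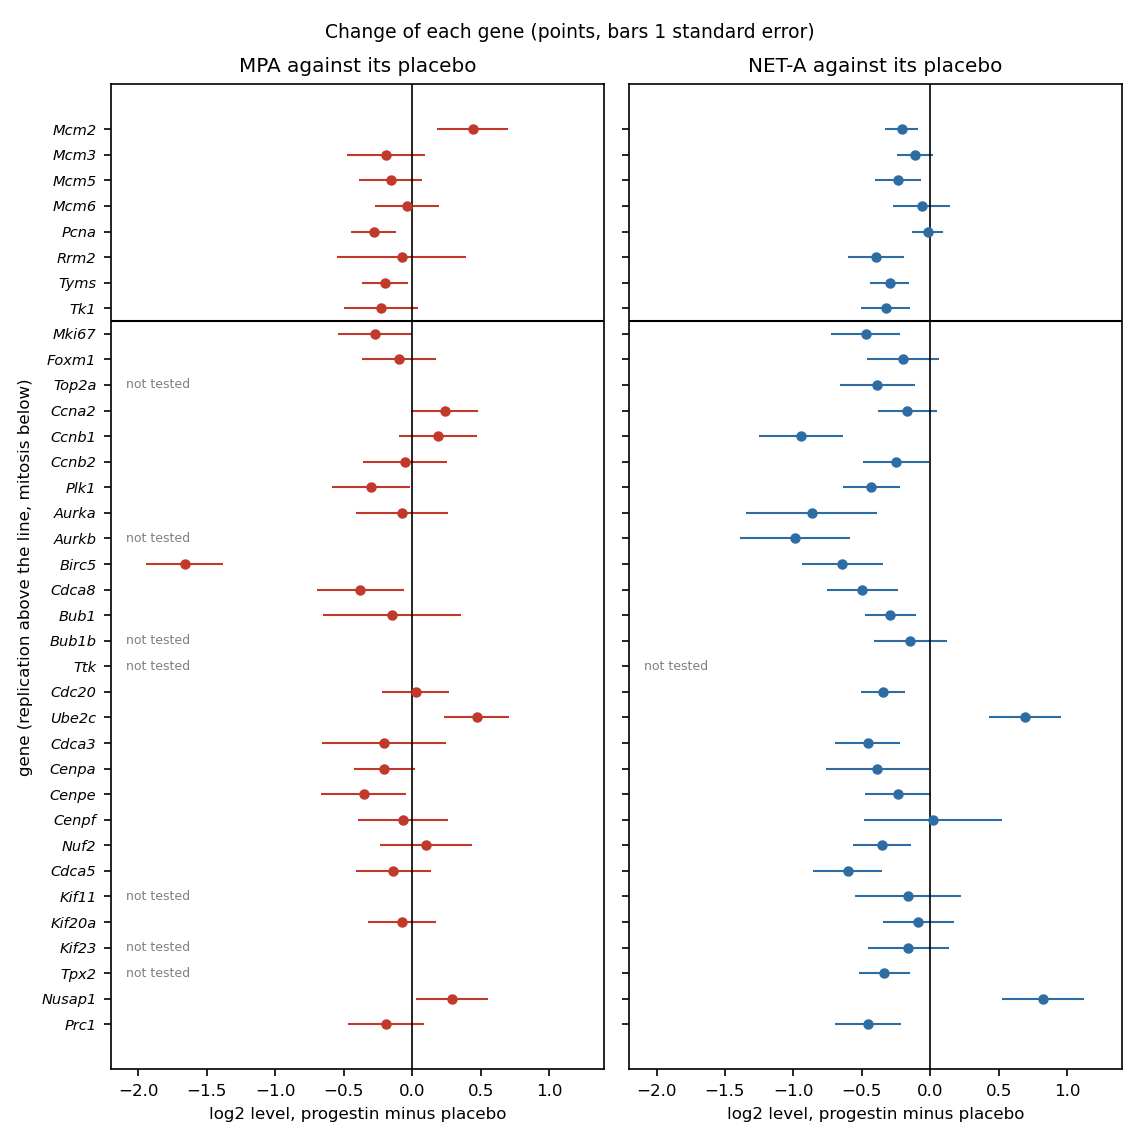
The log2 level with a progestin minus that with its placebo for each gene (points, with bars of 1 standard error), for MPA on the left and NET-A on the right, replication genes above the line. With NET-A all 8 replication genes and 24 of 27 mitosis genes lie left of 0, and Ube2c and Nusap1 lie right of it in both panels. The Birc5 point with MPA rests on 1 placebo array and 3 MPA arrays.

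The direction with MPA depended on how the signals were treated. After a different background correction (normexp), 9 of the 29 members lay below placebo in place of 22, and the mitosis median was 0.19. With the mean of all probes of a gene it was 15 of 29, without MPA replicate 4 it was 14 of 29, and without MPA replicate 2 or without placebo replicate 4 it was 16 (of 29 and of 28). With NET-A, 26 to 33 of the 35 members lay below placebo under every setting with that number of members, and the mitosis median went from -0.35 to -0.16 without placebo replicate 4, when 27 of 35 lay below.

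Single arrays stood apart. MPA replicate 2 had the weakest signal: its 75th percentile was 164 against 512 to 918 on the other arrays of its experiment, and it had the lowest share of spots (46.3%) and the fewest members (24) well above background. Its signals also correlated least with the authors' deposited column for the same array (r = 0.781 across probes, which are not independent replicates). Without it, 16 of 29 members lay below placebo with MPA in place of 22. Against the mean of the 8 arrays of its experiment, the mitosis genes of MPA replicate 1 had a median deviation of 0.43, with 18 of 19 genes above that mean. Those of MPA replicate 4 had a median of -0.48, with 1 of 19 above. Placebo replicate 4 of the same experiment stood at 0.44, with 16 of 19 above, so the MPA group held both the lowest array of the experiment and 1 of the 2 highest. In the NET-A experiment, placebo replicate 4 stood at 0.78, with 25 of 27 above, while the other 3 placebo arrays were between -0.16 and 0.04. NET-A replicate 2 was the lowest at -0.45, and the other NET-A arrays lay between -0.20 and -0.0028. The replication genes gave 0.49 for MPA replicate 1, -0.38 for MPA replicate 4 and 0.32 for the placebo replicate 4 of NET-A.

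**Figure D3:**
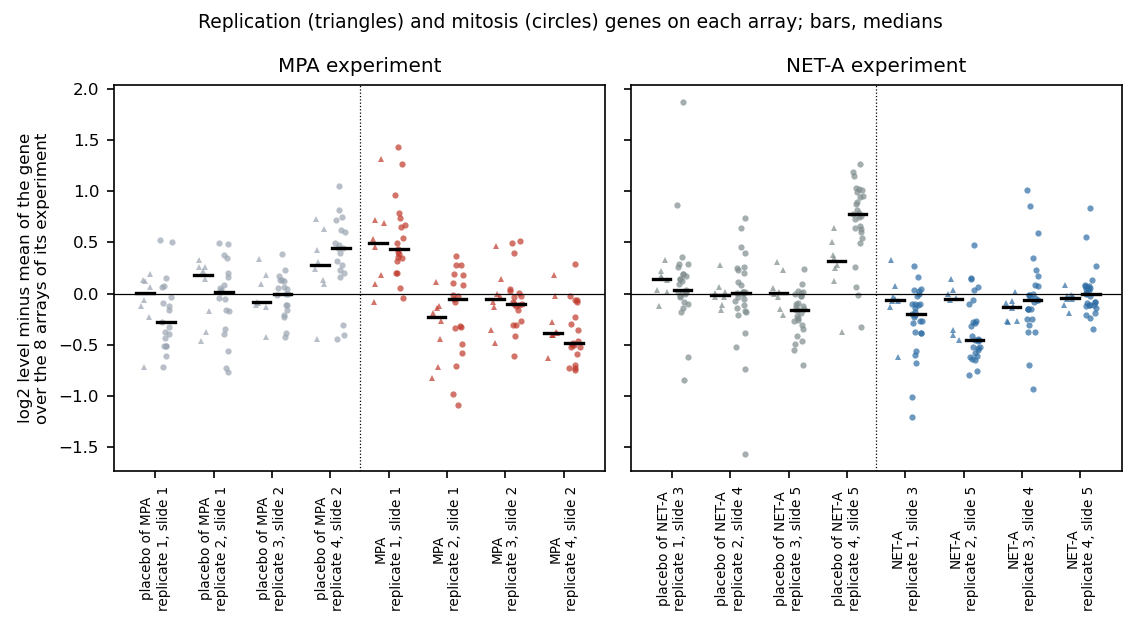
Each tested gene with values on all arrays of its experiment (triangles, replication; circles, mitosis) on each array, as its log2 level minus its mean over the 8 arrays of the experiment, with bars at the medians. The mitosis genes stand highest on placebo replicate 4 of NET-A (median 0.78) and, in the MPA experiment, on placebo replicate 4 and MPA replicate 1 (0.44 and 0.43).

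Some markers of blood-derived cells moved with these arrays and others did not. All 8 macrophage markers lay above their mean on placebo replicate 4 of NET-A (median deviation 1.18), and all 7 with full values did on placebo replicate 4 of MPA (0.82). Summed over the 8 markers, relative to the 75th percentile, the macrophage signal was 148 to 399 in the placebo of NET-A and 120 to 207 with NET-A, and 512 to 774 in the placebo of MPA and 396 to 624 with MPA. No macrophage marker was near background: each was well above it on at least 15 of 16 arrays. All 8 had fitted differences below 0 in both comparisons, with medians of -0.50 with MPA and -0.47 with NET-A. MPA replicate 1 had the highest T cell markers (median deviation 1.65, 4 of 4 above the mean) and B cell markers (1.27, 4 of 4) of its experiment. Other pairs of list and array went the other way. On placebo replicate 4 of MPA, where the mitosis genes were high, the B cell, erythroid and neutrophil markers were low (median deviations -0.96, -1.22 and -0.44). On MPA replicate 4, where the mitosis genes were lowest, the neutrophil (1.51, 5 of 5 above) and B cell markers (0.32, 4 of 4) were high and the macrophage markers low (-0.40). The macrophage markers of MPA replicate 1 stood at 0.05, and the T cell markers of placebo replicate 4 of NET-A at -0.10.

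The summed T cell signal was 1.62 to 10.5 with MPA and 2.07 to 5.26 in its placebo, and the B cell signal 1.88 to 8.44 and 1.45 to 4.03. Of the T cell markers, Cd2 and Cd4 were well above background on 8 of the 16 arrays. The summed signal of 7 neutrophil markers was 35.3 to 122 with MPA and 5.25 to 20.4 in its placebo, and 6.16 to 18.02 with NET-A and 3.19 to 5.57 in its placebo. Skeletal muscle markers also parted the NET-A groups: their median deviations were -0.54, -0.48, -0.78 and -0.64 on the placebo arrays and 1.06, 0.61, 0.92 and -0.41 with NET-A, and all 7 lay above placebo in the fit (median 1.15). Their summed signal, relative to the 75th percentile, overlapped between these groups, at 36.3 to 52.6 with placebo and 37.9 to 54.9 with NET-A. In the MPA experiment all 5 tested lay below placebo (median -2.26), with placebo replicate 3 at a median deviation of 5.15; the summed signal was 6.07 to 63.8 with placebo and 3.87 to 4.96 with MPA. Each of the 7 was well above background on 9 or more of the 16 arrays. On NET-A replicate 2, where the mitosis genes were lowest, the brown adipocyte markers were high (median deviation 1.21, 5 of 6 above the mean). On the other NET-A arrays they stood at -1.11, -1.05 and -0.14. Their summed signal was 120 to 672 with NET-A and 267 to 367 in its placebo, and 750 to 1064 with MPA and 741 to 1039 in its placebo. The part of these cells in the levels of the cell division genes was not tested.

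Slides split the MPA result. Within slide 1, with 2 arrays per group, the median difference of the mitosis genes was 0.31 and that of the replication genes 0.12. Within slide 2, also with 2 per group, they were -0.59 and -0.26. MPA replicate 1 was on slide 1, and placebo replicate 4 and MPA replicate 4 were on slide 2. With NET-A the mitosis medians were -0.21, -0.10 and -0.53 on slides 3, 4 and 5, and the replication medians -0.17, -0.10 and -0.21. Slides 3 and 4 held 1 array of each group and allow no test. In the slide-blocked fits, as within slides 1, 2 and 5, no member passed the adjusted threshold.

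**Figure D4:**
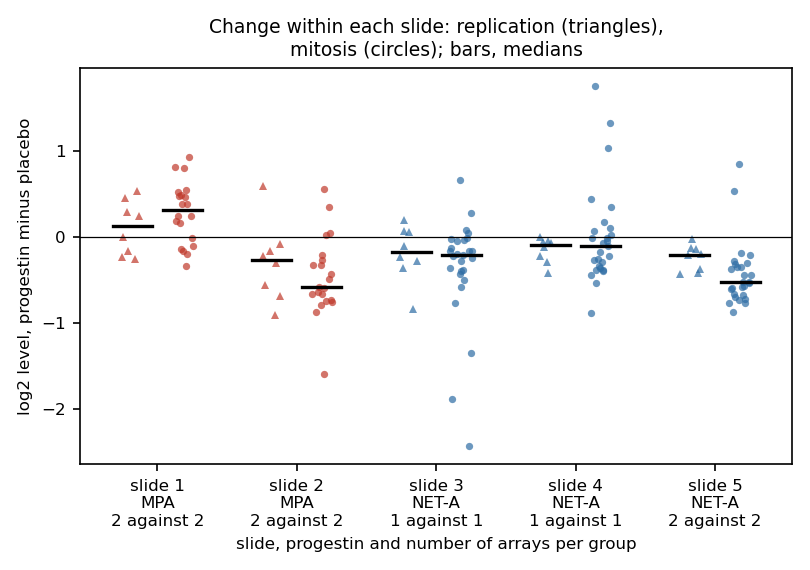
The log2 level with a progestin minus placebo within each slide (x axis, with the number of arrays per group), for replication genes (triangles) and mitosis genes (circles), with bars at the medians. The mitosis medians are 0.31 and -0.59 on the slides of the MPA experiment and -0.21, -0.10 and -0.53 on those of NET-A.

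Replication genes. Mcm2 to Mcm6 are subunits of the helicase that opens the DNA helix at replication origins. The probe for Mcm2 lies at chr6:88833619-88833678 (mm9, minus strand). Its levels were -0.50, -1.08, -0.72 and -1.06 in the placebo of MPA and 0.07, -1.07, -0.16 and -0.44 with MPA. They were -0.89, -1.02, -1.04 and -0.79 in the placebo of NET-A and -1.17, -1.0, -1.31 and -1.10 with NET-A. MPA replicate 1 was the highest of the first 8 arrays, and the groups overlapped in both experiments. Mcm2 was the only replication gene above placebo with MPA, by 0.44 ± 0.26 (SE; 95% interval -0.14 to 1.02, limma adjusted p = 0.856), and by 0.29 without MPA replicate 1. With NET-A it lay below by 0.21 on the log2 scale (a difference of -0.21 ± 0.12, limma adjusted p = 0.874).

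The other helicase subunits differed little from placebo. Mcm3 was at -0.19 ± 0.28 with MPA, against -0.11 ± 0.13 with NET-A (log2 difference ± SE), Mcm5 -0.16 ± 0.23 and -0.24 ± 0.17, and Mcm6 -0.04 ± 0.23 and -0.06 ± 0.21. Each of these differences was smaller than 2 standard errors. A second Mcm3 probe gave 0.17 with MPA and -0.008 with NET-A. It was well above background on 5 arrays of the MPA experiment and 8 of the NET-A experiment.

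Pcna is the sliding clamp that holds DNA polymerase on its template. Its probe, at chr2:132075420-132075557 (mm9, minus strand), was printed in 10 spots, which were averaged. Levels were 3.26, 3.46, 3.004 and 3.38 in the placebo of MPA and 3.23, 2.99, 3.01 and 2.76 with MPA. In the other experiment they were 2.44, 2.57, 2.58 and 2.68 with placebo and 2.50, 2.70, 2.49 and 2.51 with NET-A. The groups overlapped in both experiments, and the SD within a group was 0.10 to 0.20. The difference was -0.28 ± 0.16 with MPA (95% interval -0.65 to 0.09, limma adjusted p = 0.852) and -0.02 ± 0.11 with NET-A (-0.28 to 0.24, limma adjusted p = 0.998).

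Rrm2, Tyms and Tk1 supply the nucleotides for DNA synthesis: a subunit of ribonucleotide reductase, thymidylate synthase and thymidine kinase. By the brightest probe of each gene, they had the 3 lowest differences of the replication genes with NET-A, -0.40 ± 0.21, -0.30 ± 0.14 and -0.33 ± 0.18. With MPA they gave -0.08 ± 0.47, -0.20 ± 0.17 and -0.23 ± 0.27. A dimmer Tyms probe, well above background on all 16 arrays, gave 0.04 with MPA and -0.09 with NET-A. Another, well above background on 0 arrays of the MPA experiment and 8 of the NET-A experiment, gave 1.00 and 0.07. By these dimmer probes Tyms lay above Mcm5 (-0.24) with NET-A and was not among the 3 lowest. By the brightest probes, all 3 genes overlapped their placebo groups. The largest SE, that of Rrm2 with MPA, goes with MPA levels from -3.49 to -1.35.

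Mitosis genes, entry and markers of cycling cells. Mki67 encodes Ki-67, a coat protein of mitotic chromosomes and the usual stain for cycling cells; its probe lies at chr7:142881591-142881650 (mm9, minus strand). Levels were 0.53, 0.67, 0.61 and 1.23 in the placebo of MPA and 1.12, 0.57, 0.36 and -0.11 with MPA. They were -0.27, -0.23, -0.24 and 0.71 in the placebo of NET-A and -0.63, -0.78, -0.31 and -0.21 with NET-A. The groups overlapped: 3 of the 4 NET-A arrays lay below every placebo array, and placebo replicate 4 stood far above the other 7 arrays of that experiment. Differences were -0.27 ± 0.27 with MPA (limma adjusted p = 0.899) and -0.47 ± 0.25 with NET-A (95% interval -1.05 to 0.11, limma adjusted p = 0.858). Without placebo replicate 4 the NET-A difference was -0.23. With MPA it ranged from -0.49 without MPA replicate 1 to -0.08 without MPA replicate 4, and was -0.12 without placebo replicate 4. A second Mki67 probe gave -0.13 and -0.48.

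Top2a, a topoisomerase that untangles sister chromosomes, was near background in the MPA experiment. Its levels there were -6.00, -4.38, -4.09 and -4.23 with placebo, none well above background, and -3.28, -4.78, -3.94 and -4.74 with MPA, of which only replicate 1 was. It was well above background on all 8 arrays of the NET-A experiment, at -3.19, -3.12, -3.26 and -2.10 with placebo and -3.22, -3.53, -3.48 and -2.98 with NET-A. Placebo replicate 4 again stood above the others. The difference for Top2a with NET-A was -0.39 ± 0.28 (limma adjusted p = 0.915), and -0.11 without that array. A second Top2a probe, well above background on 6 of the 8 arrays of the NET-A experiment, gave -0.13 with NET-A.

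Ccnb1 encodes cyclin B1, which activates the kinase CDK1 at the start of mitosis. The probe lies at chr13:101548974-101549033 (mm9, minus strand), and its promoter, shown above, holds a CHR word and CCAAT. With NET-A the levels were -5.40, -4.48, -4.34 and -4.43, and in the placebo of NET-A -4.05, -3.46, -4.18 and -3.20. Every NET-A array lay below every placebo array, which held for 1 of the 35 tested members and for 2.36% of the 20909 genes (groups not overlapping, NET-A lower). NET-A replicate 1 was not well above background. In the MPA experiment the levels were -3.06, -2.94, -2.41 and -2.15 with placebo and -1.75, -2.62, -2.65 and -2.77 with MPA, and the groups overlapped.

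The difference for Ccnb1 with NET-A was -0.94 ± 0.31 (0.520 of the placebo level, 95% interval -1.65 to -0.24, limma adjusted p = 0.661). With MPA it was 0.19 ± 0.29 (limma adjusted p = 0.928), and -0.04 without MPA replicate 1. Of the members, Ccnb1 and Mcm2 had an unadjusted p under 0.05 for the difference between the responses to MPA and NET-A, 1.13 ± 0.43 (limma adjusted p = 0.644) and 0.65 ± 0.29 (limma adjusted p = 0.720). Over all 15021 genes in that test, 1013 had such a p (6.74%, made up of 4.51% with MPA higher relative to NET-A and 2.24% with MPA lower), and 0% were called, with a smallest adjusted p of 0.291. Within slides 3, 4 and 5 the NET-A differences for Ccnb1 were -1.35, -0.88 and -0.77. Their sign adds nothing, because every NET-A array lay below every placebo array. The other 2 Ccnb1 probes gave -0.92 and -0.62 with NET-A and were well above background on 5 and 1 of the 8 arrays.

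The other genes of entry had differences below 0 with NET-A. They were -0.43 ± 0.21 for Plk1, a kinase of many mitotic steps, -0.87 ± 0.48 for Aurka, a centrosome kinase, -0.25 ± 0.24 for Ccnb2, -0.17 ± 0.22 for Ccna2 (both cyclins) and -0.20 ± 0.26 for Foxm1, a transcription factor of mitosis genes. With MPA the same genes gave -0.30 ± 0.29, -0.08 ± 0.34, -0.05 ± 0.30, 0.24 ± 0.25 and -0.10 ± 0.27. The Aurka placebo arrays of NET-A were widely spread, from -2.35 to 0.22, while its NET-A arrays lay within -2.21 to -1.998.

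Mitosis genes, chromosomal passenger complex. This complex of the kinase Aurora B (Aurkb), survivin (Birc5) and borealin (Cdca8) corrects wrong attachments of chromosomes to the spindle. Aurkb levels, from a probe at chr11:68865037-68865096 (mm9, plus strand), were -4.11, -5.37, -4.74 and -3.71 in the placebo of NET-A and -5.99, -5.08, -5.91 and -4.92 with NET-A. The groups overlapped, and the probe was well above background on 3 of the placebo and 2 of the NET-A arrays, so the difference of -0.99 ± 0.40 (limma adjusted p = 0.783) rests on signals close to background. In the MPA experiment, where it was not tested, levels were -5.47, -4.74, -5.30 and -3.59 with placebo and -3.52, -4.48, -4.92 and -6.07 with MPA, of which only MPA replicate 1 was well above background.

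Birc5, from a probe at chr11:117716959-117717018 (mm9, plus strand), kept only 1 placebo value in the MPA experiment, 3.88 on replicate 4. The MPA values that were kept were 2.07, 2.37 and 2.22, on replicates 2 to 4. The difference of -1.66 ± 0.28 was the lowest of the members, with a limma adjusted p of 0.721. With the outlier spots kept, the placebo levels were 3.66, 3.87, 3.29 and 3.88 and MPA replicate 1 was at 4.17, above all of them. The difference was then -0.97 (limma adjusted p = 0.864), and its unadjusted p was no longer under 0.05. In the NET-A experiment all values were kept, at -0.18, -0.13, -0.24 and 0.97 with placebo and -0.61, -0.86, -0.53 and -0.16 with NET-A. The groups overlapped there, and the difference was -0.64 ± 0.29 (limma adjusted p = 0.815), or -0.35 without placebo replicate 4. Cdca8 gave -0.38 ± 0.32 with MPA, on 3 placebo arrays, and -0.50 ± 0.26 with NET-A.

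Mitosis genes, spindle checkpoint and exit. Bub1, Bub1b and Ttk hold the cell in mitosis until all chromosomes are attached. Bub1 was at -0.15 ± 0.50 with MPA and -0.29 ± 0.19 with NET-A, and Bub1b -0.15 ± 0.27 with NET-A. Cdc20 activates the ubiquitin ligase that ends mitosis, and gave 0.03 ± 0.24 and -0.35 ± 0.16. Cdca3, which helps to remove an inhibitor of mitotic entry, gave -0.21 ± 0.45 and -0.46 ± 0.24. A dimmer Cdca3 probe, well above background on 1 array of the MPA experiment and 8 of the NET-A experiment, gave 0.24 and -0.10. A dimmer Bub1 probe, well above background on 5 and 4 arrays of these experiments, gave -0.12 and -1.05.

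Ube2c, the ubiquitin-conjugating enzyme that works with the same ligase, went the other way. From a probe at chr2:164598016-164598075 (mm9, plus strand), its levels were -0.92, -0.26, -0.43 and -0.10 in the placebo of NET-A and -0.26, 0.06, 0.77 and 0.47 with NET-A. They were 0.70, -0.22, 0.67 and 0.11 in the placebo of MPA and 0.51, 0.73, 1.06 and 0.84 with MPA. The groups overlapped in both experiments, with 3 of the 4 progestin arrays above every placebo array in each. The difference was 0.69 ± 0.26 with NET-A (1.61-fold, limma adjusted p = 0.759) and 0.47 ± 0.24 with MPA (limma adjusted p = 0.840). It was above 0 on all 5 slides: 0.38, 0.56, 0.66, 1.03 and 0.53.

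Mitosis genes, kinetochore and cohesion. Cenpa is the histone that marks the centromere, Cenpe a kinetochore motor, and Cenpf and Nuf2 are parts of the kinetochore. With NET-A they gave -0.39 ± 0.37, -0.24 ± 0.24, 0.02 ± 0.50 and -0.35 ± 0.21, and with MPA -0.20 ± 0.22, -0.36 ± 0.31, -0.07 ± 0.33 and 0.10 ± 0.34. Cdca5, or sororin, keeps sister chromatids together until they separate. Its levels, from a probe at chr19:6091709-6091768 (mm9, plus strand), were -2.34, -2.42, -2.78 and -1.75 in the placebo of NET-A and -2.92, -3.38, -2.87 and -2.54 with NET-A. In the MPA experiment they were -2.85, -2.53, -2.48 and -1.75 with placebo and -2.06, -2.38, -2.78 and -2.94 with MPA. The groups overlapped in both, with 3 of the 4 NET-A arrays below every placebo array. The difference was -0.60 ± 0.25 with NET-A (limma adjusted p = 0.791) and -0.14 ± 0.27 with MPA (limma adjusted p = 0.951). A dimmer Cdca5 probe, well above background on 3 of the 8 NET-A arrays, gave 0.29 with NET-A.

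Mitosis genes, spindle and cell separation. Kif11 pushes the spindle poles apart, Tpx2 nucleates microtubules around chromosomes, and Kif20a, Kif23 and Prc1 build the midzone where the cell divides. With NET-A they gave -0.16 ± 0.39, -0.34 ± 0.19, -0.09 ± 0.26, -0.16 ± 0.30 and -0.46 ± 0.24. Kif20a and Prc1, tested with MPA as well, gave -0.08 ± 0.25 and -0.19 ± 0.28. The untested members of the MPA experiment were dim: Kif11 lay between -6.03 and -3.90 there, Kif23 between -5.01 and -3.42, Tpx2 between -4.59 and -3.16, Bub1b between -4.75 and -3.52 and Ttk between -6.43 and -4.81.

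Nusap1 bundles spindle microtubules, and like Ube2c its levels were above placebo. From a probe at chr2:119475072-119475131 (mm9, plus strand), they were -1.25, -1.88, -1.61 and -1.47 in the placebo of NET-A and -1.41, -1.08, -0.13 and -0.31 with NET-A. They were 0.54, -0.69, 0.08 and -0.37 in the placebo of MPA and 0.09, 0.23, 0.43 and -0.03 with MPA. NET-A replicates 3 and 4 were the highest of their experiment, and the groups overlapped in both. The difference was 0.82 ± 0.30 with NET-A (1.77-fold, limma adjusted p = 0.728) and 0.29 ± 0.26 with MPA (limma adjusted p = 0.887). Within slides 3, 4 and 5 it was -0.16, 1.75 and 0.85. A second Nusap1 probe, well above background on 2 of 8 NET-A arrays, gave 0.37.

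Erythroid markers stood highest on the same NET-A arrays as Nusap1. Their median deviation was 1.26 on NET-A replicate 3 and 0.95 on replicate 4, against -0.59 to -0.21 on the placebo arrays. Of the erythroid markers, 8 of 9 lay above placebo with NET-A (median 1.22) and 6 of 6 tested with MPA (median 0.84). Klf1, Epb4.2 and Gata1 were well above background on only 5, 7 and 8 of the 16 arrays, and the other erythroid markers on all 16. Their summed signal was 1757 to 2483 in the placebo of NET-A and 1821 to 2279 with NET-A, and 1224 to 1813 in the placebo of MPA and 1548 to 4132 with MPA. The part of erythroid cells in the levels of Nusap1 and Ube2c was not tested.

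**Figure D5:**
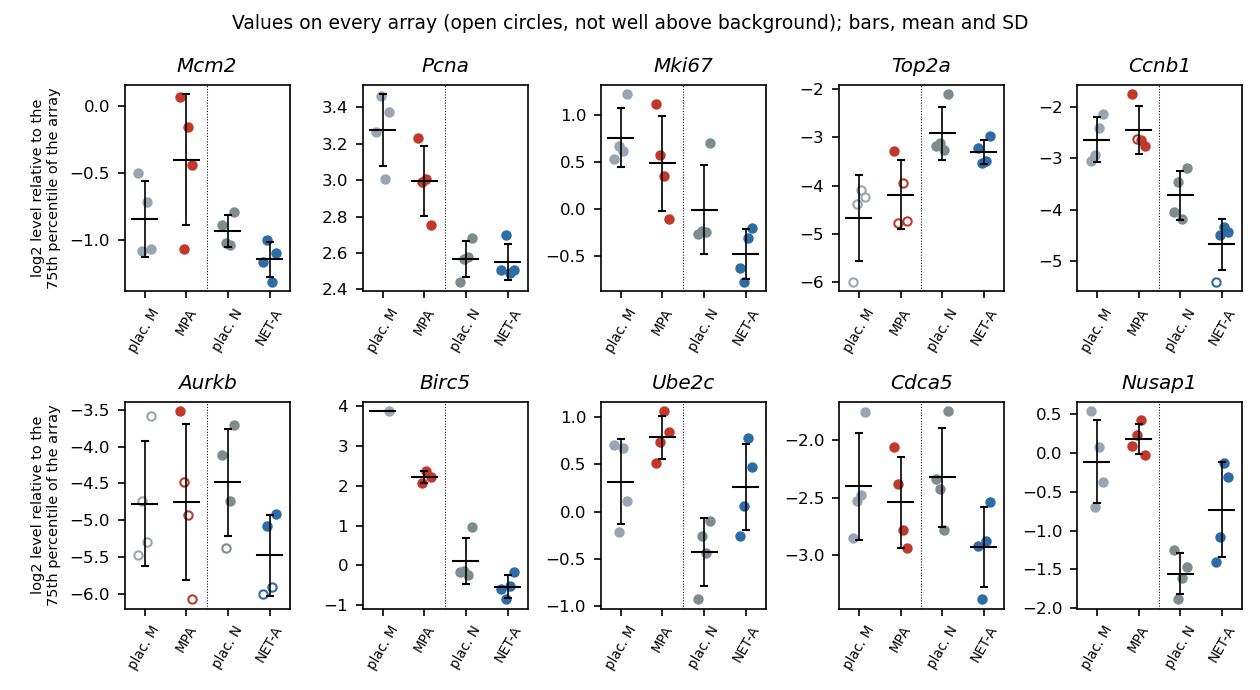
Levels of 10 genes on every array (points; open circles, not well above background), by group, as log2 signal minus the array's 75th percentile, with bars at the mean ± SD (Birc5 in the placebo of MPA has 1 value). The dotted line parts the experiments, whose levels are not compared. Within the NET-A experiment, every NET-A array lies below every placebo array for Ccnb1. There, placebo replicate 4 is the highest point for Mki67 (0.71), Top2a (-2.10) and Birc5 (0.97).

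Other cell cycle genes had median differences nearer to 0. A further list of 59 cell cycle genes (cyclins, kinases and their inhibitors, E2F factors, origin and checkpoint genes) was all on the array, with 47 tested with MPA and 55 with NET-A. The median difference was -0.06 in both, with 31 of 47 and 34 of 55 below 0, and 0 genes passed the adjusted threshold with limma. Over all genes tested, 50.5% and 55.1% were below 0. Unadjusted, 2 genes of the list with MPA (4.26%) and 3 with NET-A (5.45%) had a p under 0.05, less than the 6.2% and 6.19% of all genes, so these counts do not set the list apart. With MPA these were Ccnd1, cyclin D1 of the G1 phase, at -0.66 ± 0.22 (limma adjusted p = 0.775), and E2f3, a factor that switches on S phase genes, at -0.46 ± 0.15 (limma adjusted p = 0.775). All MPA arrays were below all placebo arrays for E2f3, as for 1.2% of all genes. With NET-A they were Ccne2, a cyclin of the entry into S phase, at -0.56 ± 0.16 (limma adjusted p = 0.625), Cdc25b, a phosphatase that activates CDK1, at 0.59 ± 0.17 (limma adjusted p = 0.625), and E2f2, of the same family as E2f3, at 0.96 ± 0.33 (limma adjusted p = 0.695). The groups did not overlap for any of these 3 genes, as for 2.36% of all genes downwards and 1.54% upwards. Cdk1, the kinase that the B cyclins activate, gave -0.54 ± 0.32 with MPA and -0.63 ± 0.36 with NET-A, with overlapping groups.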

How the data were processed

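Aortic RNA of 16 samples was labelled with Cy3 and hybridised to 1-colour Agilent arrays of 41174 probes. The deposited intensity values, per the file headers, are signals processed by the authors with Feature Extraction 10.7.1.1 (MPA experiment) and 11.0.1.1 (NET-A experiment); probe positions there are on mm9. The authors' deposited table of log2 values was used as an alternative. The NET-A files used here hold no gene names, so names were taken through probe identifiers from the MPA files, which share the design.

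From there, spots with outlier flags were left out, log2 signals were reduced by the 75th percentile of each array, and the brightest probe per gene name was used. Genes well above background on at least 4 of 8 arrays were fitted per experiment with limma 3.58.1 in R 4.3.3 (lmFit, eBayes, Benjamini-Hochberg), and the difference between responses over all 16 arrays; the threshold was 0.05. The scripts were tested on simulated data. The number of arrays limits the precision.

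The members and gene lists were chosen with earlier results of these data known. Values on every array are given for Mki67, Top2a, Mcm2 and Pcna, and for members with an unadjusted p under 0.05 or groups that do not overlap. Other cell cycle genes are named at an unadjusted p under 0.05, with Cdk1, Mybl2 and Mad2l1 added after their values were seen. The lists of smooth muscle, endothelial, macrophage, T cell, B cell, neutrophil, erythroid, skeletal muscle and brown adipocyte markers were used to describe samples. Alternatives were other background corrections, scalings, filters, probe rules, slide and replicate blocks, weights and leaving out each array. Normexp with an offset of 50 used the mean signal in the MPA experiment and the median signal in the NET-A experiment.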

Additional observations from a re-analysis of the deposited data

Results flagged for a closer look

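Of 141 groups of 4 values over the members, 16 held a value far from the other 3 by Dixon's test. Chance gives such a value in about 1 group in 20. The groups share their arrays and are not independent, so the count cannot be set against that rate. Placebo replicate 4 of NET-A was high for Mki67 (0.71), Top2a (-2.10), Birc5 (0.97), Bub1b (-2.59), Cenpe (-0.64) and Tpx2 (-1.77). NET-A replicate 2 was low for Ccnb2 (-1.56), Cdca8 (-1.67), Cenpe (-1.95) and Nuf2 (-3.22) and high for Pcna (2.70). NET-A replicate 1 was low for Ccnb1 (-5.40), where the probe was not well above background. Placebo replicate 3 of NET-A was low for Foxm1 (-2.97). MPA replicate 1 was high for Ccnb1 (-1.75). In the placebo of MPA, replicate 1 was low for Top2a (-6.00) and replicate 4 high for Tpx2 (-3.17), both of which were mostly not well above background in that group.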

How the results depend on the processing

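No member passed the adjusted threshold in either comparison under any alternative run. The slide block called 1 gene, no member, with MPA, and leaving out NET-A replicate 1 called 1 in the difference between responses; leaving out single arrays gave 0 to 1 calls there and 0 in either comparison. Without single arrays the median difference ran from -0.33 to -0.03 for the replication genes with MPA, -0.31 to 0.01 for the mitosis genes with MPA, -0.26 to -0.18 for replication with NET-A and -0.42 to -0.16 for mitosis with NET-A. Within slide 1 the medians with MPA were 0.12 (replication) and 0.31 (mitosis), within slide 2 the mitosis median was -0.59, and within slide 4 the replication median with NET-A was -0.10. The replicate block, with numbers that do not pair the samples (correlations of same-numbered samples from -0.33 to 0.33), gave a mitosis median of -0.09 with MPA and 0 called genes. Keeping outlier spots took the members with an unadjusted p under 0.05 with MPA from 1 to 0 of 29. Scaling on the array median put 62.4% of all genes below 0 with MPA and 39.1% with NET-A. Normexp shifted the median of all genes with NET-A to -0.13, against a mitosis median of -0.45. The causes were not tested. With 4 arrays per group and signals near background for Ttk, Aurkb, Kif11 and, with MPA, Top2a, Bub1b, Kif23 and Tpx2, small differences were not detectable.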
